A study of Mus musculus with 12 samples.

Results

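The genes of fatty acid uptake and mitochondrial fatty acid oxidation were examined in skeletal muscle and hypothalamus of congenic and wild type mice. The set was a list of 10 genes named by symbol: Cd36, Fabp3, Lpl, Cpt1b, Cpt2, Acadm, Acadl, Acadvl, Hadha and Hadhb. Of these, 8 genes had a probe that the platform annotation names with their symbol, and together they had 9 of the 33012 probes on the array, because Hadhb had 2. Lpl and Acadm were not analysed here. None of the 10 genes lies on chromosome 17, the chromosome that the congenic strain is named for.

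The 12 arrays came from male mice and formed 4 groups of 3: skeletal muscle of homozygous B6.CAST-17 congenics, skeletal muscle of wild type B6, hypothalamus of homozygous B6.CAST-17 congenics, and hypothalamus of wild type B6. B6 is the common inbred laboratory background, and B6.CAST-17 carries chromosome 17 material of the wild-derived strain CAST on it. The series concerns physical activity and carbohydrate preference in a sub-congenic strain of this kind. The hypothalamus titles call the congenics short and the muscle titles do not, so whether 1 set of mice gave both tissues is not settled. The design text gives 3 mice per strain, which read as written means that each mouse gave both, and the labels give no age.

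Working muscle draws much of its energy from fatty acids. Lipoprotein lipase, encoded by Lpl, frees them from circulating triglyceride, the transporter CD36 brings them across the membrane and the binding protein FABP3 carries them through the cytosol. The carnitine palmitoyltransferases CPT1B and CPT2 pass them into mitochondria, where acyl-CoA dehydrogenases and the trifunctional protein shorten them step by step. Brain takes most of its energy from glucose and uses fatty acids as a fuel to a much smaller extent.

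Values are log2 signal intensities as the authors deposited them, so a difference of 1 stands for a factor of 2. They appear to be normalized separately in each tissue, because arrays of 1 tissue shared a distribution that differed between tissues. The base of the logarithm was inferred from the range of the values, and the files hold no detection calls, so how far a value lies above background is unknown. Array medians were 9.12 in muscle and 8.98 in hypothalamus. Spearman correlations across all probes were 0.796 to 0.862 between muscle arrays and 0.775 to 0.853 between 5 of the hypothalamus arrays, while wild type hypothalamus array 1 reached only 0.42 to 0.461 with the other 5. Results for hypothalamus are therefore given with and without that array. The mean of 8 measured skeletal muscle markers lay between 19.77 and 19.91 in muscle and between 9.16 and 10.25 in hypothalamus. The mean of 8 measured neuron markers lay between 9.78 and 10.28 in muscle and between 12.16 and 14.31 in hypothalamus, lowest there on wild type array 1. Of these 8, 5 were lower in muscle by the test (limma, adjusted p under 0.05). The other 3 did not pass, with muscle minus hypothalamus at 0.04 for Snap25, 0.01 for Syt1 and -1.89 for Tubb3.

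In outline, all 8 measured genes were higher in muscle than in hypothalamus, by 3.03 to 5.34 on the log2 scale, and no gene passed the test of the strain difference in either tissue. In bulk tissue, fewer cells of a type and less RNA per cell cannot be told apart.

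**Figure D1:**
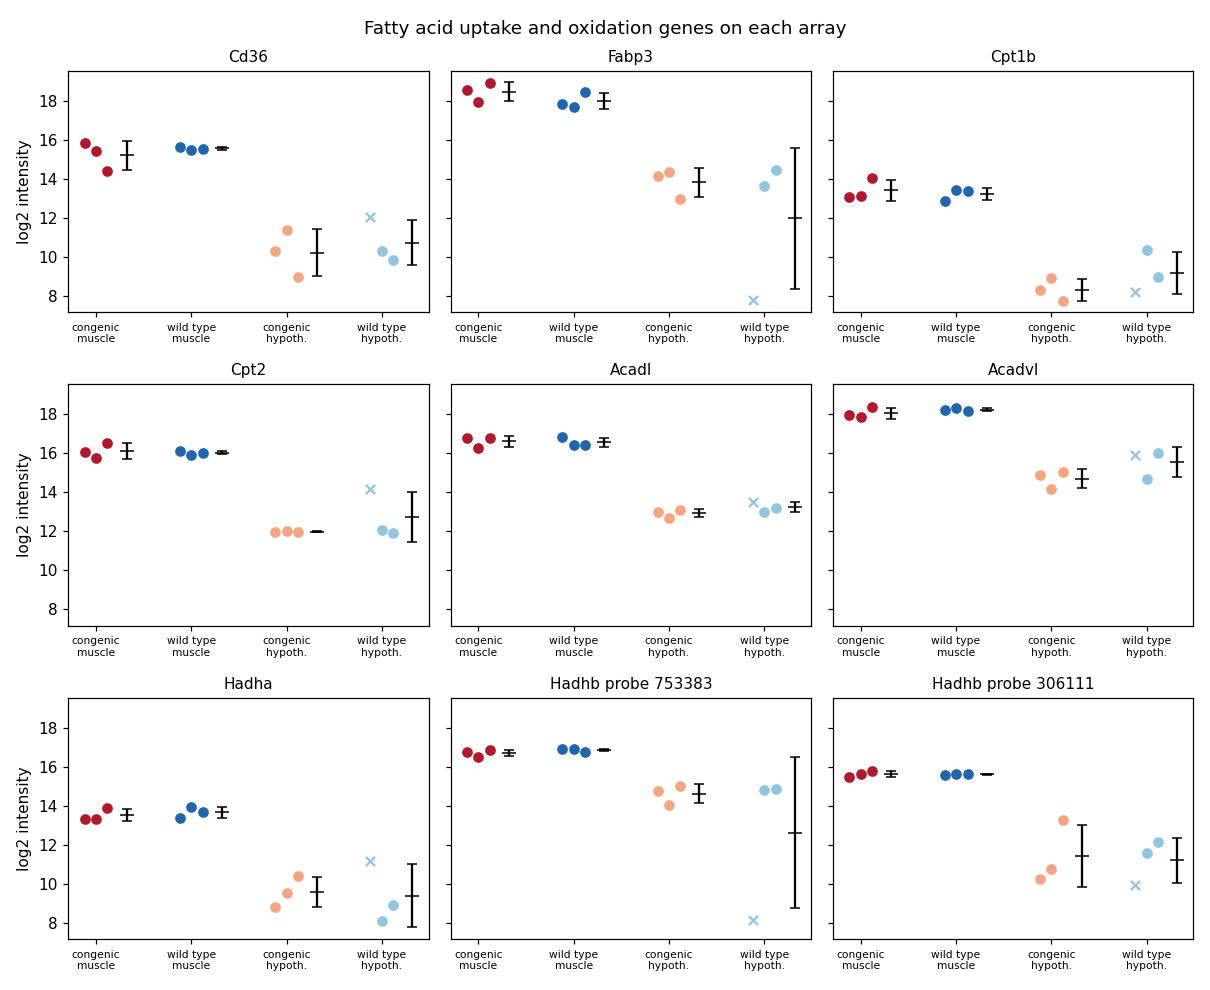
Log2 signal intensity of the 9 probes on each array, with 1 panel per probe and the congenic group left of the wild type group within each tissue. Points are single arrays, with wild type hypothalamus array 1 as a cross, and black bars are group means with their SD (n = 3). All 6 muscle points lie above all 6 hypothalamus points in every panel, and the cross lies far below the rest for Fabp3 and Hadhb probe 753383.

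The uptake genes are described first. Cd36, on chromosome 5, encodes the membrane glycoprotein that takes up long-chain fatty acids. Its log2 intensity was 15.83, 15.41 and 14.38 in congenic muscle, against 15.64, 15.48 and 15.54 in wild type muscle. Congenic array 3 was the lowest of the 6, congenic array 1 the highest, and the strains overlapped. In hypothalamus Cd36 read 10.30, 11.39 and 8.96 in congenics, against 12.03, 10.29 and 9.83 in wild type. Muscle exceeded hypothalamus by 4.91 ± 0.49 (SE), a 30.2-fold difference (limma, adjusted p = 4.41e-06, n = 6 and 6).

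Fabp3, on chromosome 4, encodes the fatty acid binding protein of heart and muscle. It read 18.55, 17.92 and 18.92 in congenic muscle, against 17.83, 17.70 and 18.43 in wild type muscle. The 2 highest values were congenic, but congenic array 2 lay below wild type array 3. In hypothalamus it read 14.13, 14.33 and 12.96 in congenics, against 7.81, 13.65 and 14.44 in wild type, where array 1 stood far below the other arrays. The difference of muscle over hypothalamus was 5.34 ± 0.88 (40.5-fold, limma, adjusted p = 0.000416). Without wild type hypothalamus array 1 it was 4.30 (19.7-fold, limma, adjusted p = 2.48e-08), so that array moved the fold by more than 1.5 times.

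The promoter windows of 8 of the 10 listed genes were in a RefSeq table of the mouse assembly GRCm38.p6, all but Lpl and Cpt1b. Each window has 250 bases before the start of the gene and 50 after it. They were searched on both strands for AGGTCA, the half-site of many nuclear receptors, and for 2 direct copies of it with any 1 base (N) between them, the repeat that PPAR receptors are known to bind. The letters of the GC box, GGGCGG, were searched as well, as were those of the TATA box, written TATAAA. The half-site lies inside the direct repeat, so the searches overlap. The half-site was found in 3 of the 8 windows (Acadm, Cd36 and Acadvl), and in 16.3% of all 32851 windows. The direct repeat was in none of the 8 and in 0.0396% of all windows. The GC box was in 5 of the 8 (Acadl, Cpt2, Cd36, Hadha and Hadhb) and in 35.7% of all windows, and the TATA letters were in none of the 8 and in 13.6% of all windows. The windows of the 2 measured genes with the half-site are shown here, 5′ to 3′ along each gene, with the motif in capitals. Cd36 is at chr5:17835847-17836146 on the minus strand and holds the motif in reverse, 228 to 223 bases before the start. Acadvl is at chr11:70015379-70015678 on the minus strand and holds it forward, 87 to 82 bases before the start.
Cd36: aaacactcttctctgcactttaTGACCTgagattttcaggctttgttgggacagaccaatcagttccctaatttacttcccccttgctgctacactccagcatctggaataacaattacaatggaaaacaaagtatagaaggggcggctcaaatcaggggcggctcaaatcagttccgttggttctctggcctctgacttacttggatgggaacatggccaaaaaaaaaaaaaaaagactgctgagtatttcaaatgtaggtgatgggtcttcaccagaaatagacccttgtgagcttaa
Acadvl: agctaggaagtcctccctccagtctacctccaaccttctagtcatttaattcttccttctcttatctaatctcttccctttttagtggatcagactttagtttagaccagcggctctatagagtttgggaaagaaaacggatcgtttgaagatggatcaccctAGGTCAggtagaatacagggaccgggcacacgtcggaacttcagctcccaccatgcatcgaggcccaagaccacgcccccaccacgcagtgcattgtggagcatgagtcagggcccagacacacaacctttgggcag

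The carnitine genes follow. Cpt1b, on chromosome 15, encodes the muscle form of carnitine palmitoyltransferase 1, the enzyme that commits fatty acids to mitochondrial import. It read 13.05, 13.14 and 14.02 in congenic muscle, against 12.88, 13.41 and 13.35 in wild type muscle, with congenic array 3 above the rest. In hypothalamus it read 8.29, 8.89 and 7.74 in congenics, against 8.21, 10.35 and 8.94 in wild type. These hypothalamus values lay at percentiles 15.7 to 66.8 of their arrays, and whether they exceeded background is unknown. Muscle exceeded hypothalamus by 4.57 ± 0.41 (23.8-fold, limma, adjusted p = 1.62e-06).

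Cpt2, on chromosome 4, encodes the inner membrane enzyme that turns acyl-carnitine back into acyl-CoA. It read 16.08, 15.73 and 16.54 in congenic muscle, against 16.09, 15.93 and 16.03 in wild type muscle. The wild type arrays lay within the congenic range. In hypothalamus it read 11.97, 11.99 and 11.97 in congenics, against 14.18, 12.07 and 11.90 in wild type, so that 5 of the 6 arrays were nearly equal and wild type array 1 stood above them. The difference of muscle over hypothalamus was 3.72 ± 0.39 (13.2-fold, limma, adjusted p = 7.91e-06), and 4.09 (17.0-fold) without that array.

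The dehydrogenases catalyse the first step of each oxidation cycle. Acadl, on chromosome 1, encodes the long-chain enzyme. It read 16.80, 16.28 and 16.76 in congenic muscle, against 16.81, 16.43 and 16.41 in wild type muscle. In hypothalamus it read 13.01, 12.68 and 13.09 in congenics, against 13.52, 13.01 and 13.21 in wild type. Acadl was even among arrays of both tissues, wild type hypothalamus array 1 included, and its tissue difference had the smallest error of the 9 probes. Muscle exceeded hypothalamus by 3.50 ± 0.27 (11.3-fold, limma, adjusted p = 4.31e-07).

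Acadvl, on chromosome 11, encodes the very-long-chain enzyme of the inner mitochondrial membrane. It read 17.97, 17.83 and 18.37 in congenic muscle, against 18.21, 18.32 and 18.17 in wild type muscle. Congenic arrays held both the highest value and the 2 lowest. In hypothalamus it read 14.88, 14.14 and 15.06 in congenics, against 15.92, 14.67 and 16.03 in wild type. Its tissue difference, 3.03 ± 0.33 (8.15-fold, limma, adjusted p = 1.04e-05), was the smallest among the 9 probes with all 12 arrays.

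The trifunctional protein catalyses the remaining steps of the cycle for long chains. Its alpha subunit, with hydratase and hydroxyacyl-CoA dehydrogenase activity, is encoded by Hadha, and its beta subunit, the thiolase, by Hadhb. In the RefSeq table both genes lie side by side on chromosome 5 and point away from each other, with 272 bases between their starts. Their windows share 228 bases, shown in capitals because the same stretch precedes both genes. Hadha is at chr5:30154931-30155230 on the minus strand and Hadhb at chr5:30155003-30155302 on the plus strand. Each line runs 5′ to 3′ along its own gene, so the shared stretch appears as its reverse complement in the other line.
Hadha: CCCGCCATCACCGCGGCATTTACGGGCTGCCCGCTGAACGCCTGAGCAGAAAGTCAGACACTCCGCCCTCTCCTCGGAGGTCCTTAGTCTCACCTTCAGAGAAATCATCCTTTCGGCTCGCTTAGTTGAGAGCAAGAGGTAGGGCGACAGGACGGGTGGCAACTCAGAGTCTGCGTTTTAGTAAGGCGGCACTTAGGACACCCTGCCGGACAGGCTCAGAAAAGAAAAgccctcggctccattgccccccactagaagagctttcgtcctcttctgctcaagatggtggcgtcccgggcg
Hadhb: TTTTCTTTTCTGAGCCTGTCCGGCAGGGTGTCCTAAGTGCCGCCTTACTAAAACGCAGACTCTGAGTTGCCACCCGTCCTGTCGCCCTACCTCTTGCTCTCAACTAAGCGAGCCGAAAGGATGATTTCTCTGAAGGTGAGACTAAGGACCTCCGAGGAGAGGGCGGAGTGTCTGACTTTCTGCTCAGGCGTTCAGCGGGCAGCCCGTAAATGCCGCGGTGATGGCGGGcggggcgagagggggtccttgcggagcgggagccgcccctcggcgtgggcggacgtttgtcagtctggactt
Such an overlap with the window of a gene pointing away was found for 2936 of 27025 genes (10.9%), and for these 2 of the 8 listed genes that have a window.

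Hadha read 13.34, 13.32 and 13.88 in congenic muscle, against 13.39, 13.94 and 13.67 in wild type muscle. The strains overlapped. In hypothalamus it read 8.82, 9.54 and 10.39 in congenics, against 11.19, 8.10 and 8.90 in wild type, at percentiles 28.2 to 73.9 of the arrays, where the distance to background is unknown. Muscle exceeded hypothalamus by 4.10 ± 0.49 (17.1-fold, limma, adjusted p = 2.48e-05).

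Hadhb had 2 probes, whose levels are not set against each other. Probe 753383 read 16.74, 16.51 and 16.85 in congenic muscle, against 16.89, 16.90 and 16.77 in wild type muscle, and probe 306111 read 15.45, 15.63 and 15.80 in congenic muscle, against 15.59, 15.60 and 15.63 in wild type muscle. Both probes varied little among muscle arrays, with an SD over the 6 arrays of 0.14 and 0.11. In hypothalamus probe 753383 read 14.76, 14.06 and 15.01 in congenics, against 8.15, 14.81 and 14.87 in wild type. Probe 306111 read 10.24, 10.77 and 13.25 in congenic hypothalamus, against 9.93, 11.56 and 12.16 in wild type hypothalamus. Wild type array 1 was the lowest hypothalamus array for both probes, by a wide gap for probe 753383.

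The tissue difference of probe 306111 was 4.30 ± 0.51 (19.7-fold, limma, adjusted p = 2.58e-05). That of probe 753383 was 3.17 ± 0.92 (8.98-fold, limma, adjusted p = 0.0184), and without wild type hypothalamus array 1 it was 2.05 (4.14-fold, limma, adjusted p = 1.03e-06). The 2 probes of Hadhb thus passed in the same direction. Without the array that stood apart their estimates were 2.05 for probe 753383 and 3.98 for probe 306111, and the difference between the probes was not tested.

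The strain comparison in muscle asked whether fatty acid oxidation genes differ between the congenic and wild type mice. None of the 8 genes did so by the test, and none of the 9 probes had groups that did not overlap. Estimates of congenic minus wild type ran from -0.35 for Cd36 to 0.48 for Fabp3, and 5 of 9 were above 0. Their median was 0.02, where the median of all probes was 0.01.

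In limma 0 of 9 probes passed an adjusted p of 0.05 and 0 had an unadjusted p under 0.05, while 6 of all 33012 probes passed (0.0182%) and 1653 had an unadjusted p under 0.05. Groups that do not overlap were found for 11.9% of all probes. Fabp3 gave 0.48 ± 0.27 (SE; 95% interval -0.12 to 1.08; limma, adjusted p = 0.835). Cd36 gave -0.35 ± 0.31 (-1.05 to 0.35; limma, adjusted p = 0.851), with an SD of 0.74 in congenics and 0.08 in wild type. The intervals of Hadhb were the closest around 0: probe 306111 gave 0.02 ± 0.16 (-0.33 to 0.37) and probe 753383 gave -0.16 ± 0.15 (-0.49 to 0.18).

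The estimates of the other genes were 0.19 ± 0.29 for Cpt1b, 0.10 ± 0.21 for Cpt2, 0.06 ± 0.19 for Acadl, -0.18 ± 0.17 for Acadvl and -0.15 ± 0.23 for Hadha, with adjusted p of 0.856 to 0.956 in limma. Taken as folds, the 95% intervals of the 9 probes spanned 0.484 to 2.11, so a change of more than 2.11-fold up or to less than 0.484 of the wild type level lay outside all of them.

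**Figure D2:**
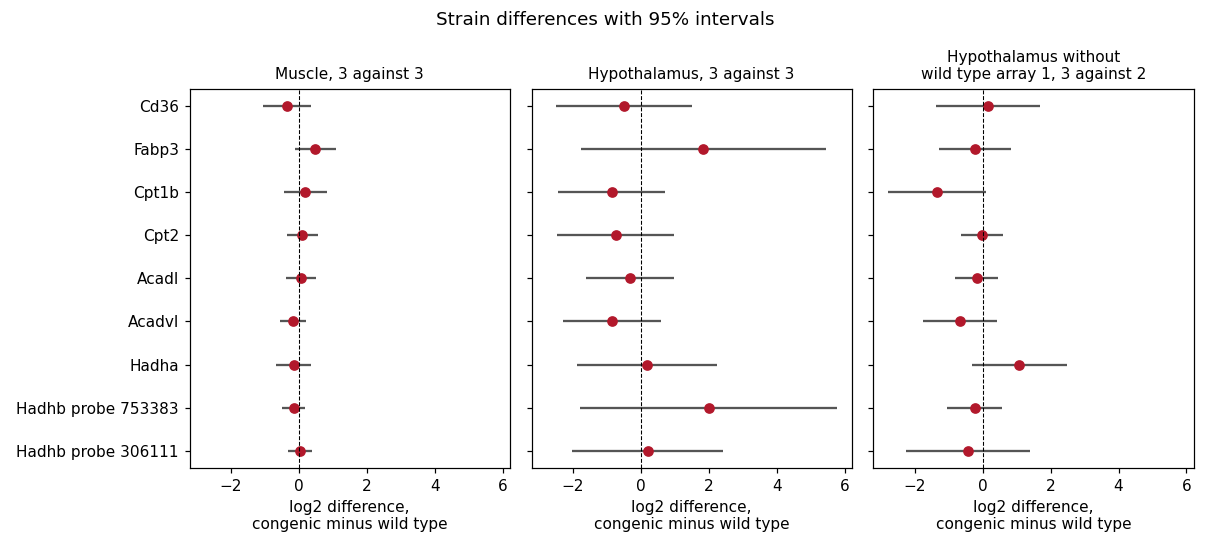
Congenic minus wild type difference on the log2 scale for each probe in muscle and in hypothalamus, the latter with all arrays and without wild type array 1. Points are limma estimates and bars are 95% intervals. Muscle intervals all cross 0 and are narrow beside those of hypothalamus, which also cross 0.

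Within muscle the members varied between arrays of 1 strain. Congenic array 3 was the highest of the 6 for 5 of 9 probes (Fabp3, Cpt1b, Cpt2, Acadvl and Hadhb probe 306111) and the lowest for Cd36, at 14.38, with the other 5 arrays at 15.41 or more. Congenic array 2 was the lowest for 5 of 9 (Cpt2, Acadl, Acadvl, Hadha and Hadhb probe 753383). The mean deviation of the 9 probes was 0.01, -0.21 and 0.20 on the congenic arrays, against -0.04, 0.00 and 0.03 on the wild type arrays. The congenic arrays thus spread further than the wild type arrays, on both sides of them. Array 3 also held many extremes elsewhere: of the 4256 probes at least as bright as the dimmest member, 42.2% were highest and 33.4% lowest on it. Congenic array 2 was the lowest for 8.18% of those probes.

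**Figure D3:**
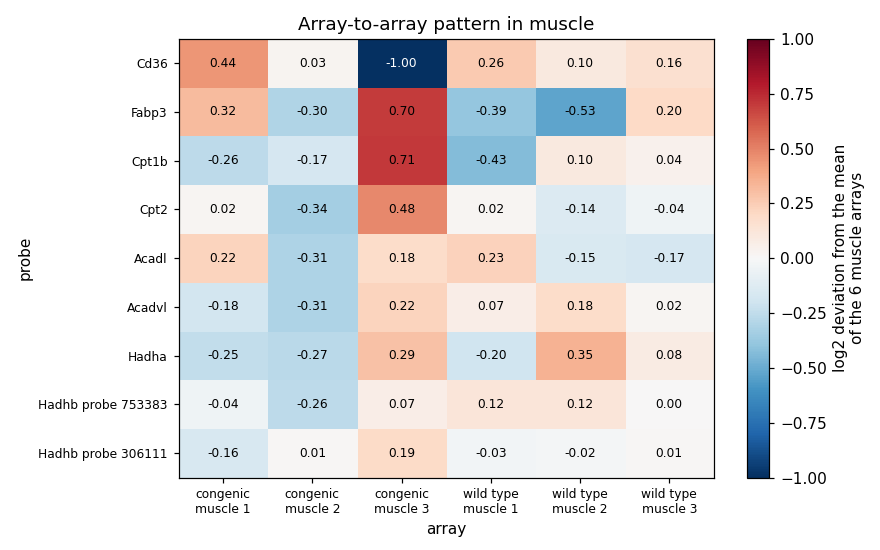
Deviation of each probe from its own mean over the 6 muscle arrays, on the log2 scale, with congenic arrays left of wild type arrays. Congenic array 3 is above the mean for all probes other than Cd36, and congenic array 2 is below the mean for all probes other than Cd36 and Hadhb probe 306111.

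Without congenic array 3, 7 of the 9 muscle estimates were below 0, beside 16907 of all 33012 probes. Their median was -0.11, against -0.01 for all probes. Cd36 then gave 0.07, Cpt1b -0.12, Cpt2 -0.11, Acadl -0.01 and Hadhb probe 306111 -0.06, each with its sign turned. Acadvl gave -0.33 (95% interval -0.59 to -0.08), with an unadjusted limma p of 0.0167 and an adjusted p of 0.911. No member passed.

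Some marker lists had their extremes on the same arrays, and others did not. The mean of 7 of 8 listed slow fibre markers was 11.31, 11.08 and 11.86 on the congenic muscle arrays, against 11.48, 11.37 and 11.50 on the wild type ones, highest on array 3 and lowest on array 2 as for the members. The 7 did not act alike. Between tissues 4 were higher in muscle, 1 (Myh7, -3.86) was lower and 2 did not pass (limma, adjusted p under 0.05). Between strains in muscle 3 estimates were above 0 and 4 below. The mean of 5 of 7 listed adipocyte markers was 12.09, 11.98 and 11.38 in congenic muscle, against 11.70, 11.27 and 10.89 in wild type muscle. Array 3 was the lowest congenic array, as for Cd36, but wild type arrays 2 and 3 lay below it, unlike for Cd36. By the median of the 5 markers, congenic array 2 was the lowest congenic array, at 10.58 against 11.07 on array 3. Fabp4, the binding protein of fat cells, read 19.39, 18.88 and 17.04 in congenic muscle, against 19.47, 18.46 and 17.79 in wild type muscle. Like Cd36, it was lowest on congenic array 3. The 7 endothelial markers averaged 11.40, 10.96 and 11.66 in congenic muscle, against 11.30, 11.65 and 11.70 in wild type muscle, and the 3 measured of 6 blood markers 12.24, 12.86 and 13.33 in congenic muscle, against 12.31, 12.06 and 12.60 in wild type muscle. The skeletal muscle markers, between 19.77 and 19.91, varied little. The lists with the most genes at an unadjusted p under 0.05 between strains in muscle were macrophage and fibroblast markers. Of all 13840 genes by their brightest probe, 698 had such a p in limma. The mean of 6 of 8 macrophage markers was 13.25, 13.26 and 12.75 in congenic muscle, against 12.83, 12.30 and 12.66 in wild type muscle. Of the 6, 3 had such a p, all of them C1q genes: C1qa (0.99), C1qb (0.92) and C1qc (0.82). Mrc1 (0.40), Adgre1 (0.25) and Aif1 (-0.43) did not. The mean of the 8 fibroblast markers was 15.19, 15.27 and 14.97 in congenic muscle, against 15.08, 14.74 and 14.83 in wild type muscle. Such a p was found for 4 of the 8: Col1a1 (0.76), Fn1 (0.51), Col1a2 (0.50) and Col3a1 (0.47). It was not found for Dcn (0.11), Lum (0.03), Postn (-0.07) and Pdgfra (-0.23). The strains overlapped in both means and no marker passed (limma, adjusted p under 0.05). The part of these cell types in the members' values was not tested.

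The genes whose muscle profile was most like the mean deviation of the members were Myl3, Dusp7, Wdr45b, Anapc7 and Egln3, with Pearson r of 0.987 to 0.989 over the 6 muscle arrays. Myl3, the myosin light chain of slow fibres and heart ventricle, read 11.34, 10.43 and 12.31 in congenic muscle, against 11.34, 11.43 and 11.67 in wild type muscle. They were picked from all named genes for this likeness, and the 6 points include congenic array 3.

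In hypothalamus the strains were not separated at any of the 8 genes, and all 9 probes had overlapping groups with 3 arrays each, as against 9.16% of all probes that did not overlap. In limma 0 of 9 passed and 0 had an unadjusted p under 0.05, with adjusted p of 0.936 to 0.973. Across the array 0 of 33012 probes passed (0.0%), and 658 had an unadjusted p under 0.05. The largest estimates, 2.00 for Hadhb probe 753383 (95% interval -1.79 to 5.78) and 1.84 for Fabp3 (-1.77 to 5.45), rest on wild type array 1. That array was the highest of the 6 for 4 of the 9 probes (Cd36, Cpt2, Acadl and Hadha) and the lowest for 3 (Fabp3 and both of Hadhb).

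Without wild type array 1, with 3 congenic and 2 wild type arrays, Fabp3 gave -0.24 and Hadhb probe 753383 gave -0.23. Again 0 of 9 passed in limma and 0 had an unadjusted p under 0.05, beside 0 (0.0%) and 1761 of all probes. Groups were apart for 1 of 9, Cpt1b, lower in every congenic array than in both wild type arrays, where 22.6% of all probes had groups apart. Cpt1b gave -1.34 ± 0.63 (SE; 95% interval -2.79 to 0.10; limma, adjusted p = 0.900). Hadha gave 1.08 (-0.32 to 2.49; limma, adjusted p = 0.900). The remaining estimates were 0.16 for Cd36, -0.01 for Cpt2, -0.18 for Acadl, -0.66 for Acadvl and -0.44 for Hadhb probe 306111. Their median over the 9 was -0.23 and that of all probes -0.01.

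Whether the strain difference itself differed between muscle and hypothalamus was tested as an interaction over the 12 arrays. In limma 0 of 9 probes passed and 0 had an unadjusted p under 0.05 (adjusted p of 0.913 to 0.983), beside 0 (0.0%) and 1198 of all probes. Without wild type hypothalamus array 1 again 0 of all probes passed (0.0%), and 1 of 9, Cpt1b, had an unadjusted p under 0.05. Its estimate, the strain difference in muscle minus that in hypothalamus, was 1.53 ± 0.63 and did not pass (limma, unadjusted p = 0.0299, adjusted p = 0.722).

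The comparison of muscle with hypothalamus was the one in which the members passed. All 8 genes, on 9 of 9 probes, were higher in muscle, and the lowest muscle array lay above the highest hypothalamus array for each. Of all probes 18.5% passed as higher in muscle, and 23.3% of all genes by their brightest probe. For 13.3% of all probes the tissues did not overlap with muscle the higher. The members' median difference was 4.10, against 0.17 for all probes.

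If each mouse gave both tissues, the 6 arrays of muscle and the 6 of hypothalamus share animals, while the fit treats all arrays as independent. No label says that a number marks 1 mouse in both tissues. In their deviations from group means, same-numbered arrays of a strain correlated across tissues at 0.02 to 0.076. Arrays of a strain with different numbers correlated across tissues at -0.078 to 0.043. Whether the numbers mark shared mice was not tested.

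By their distributions, the tissues appear to have been normalized apart. When all 12 arrays were brought to 1 distribution, the median difference over all probes was -0.009 in place of 0.166, and 52.9% of all calls were higher in muscle in place of 62.7%. Relative to that shift the members kept their direction, with differences of 2.25 to 4.69. Hadhb probe 753383 no longer passed there (2.48, limma, adjusted p = 0.0728), and without wild type hypothalamus array 1 all 9 passed under the same scaling (1.32 to 4.86). Under this scaling 4826 of all 33012 probes passed as higher with all arrays, and 6651 without that array.

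Without wild type hypothalamus array 1, in the scaling as deposited, the differences were 2.05 to 5.24 and all 9 passed (limma, adjusted p of 2.38e-10 to 1.99e-06), beside 24.8% of all probes that passed as higher. Each strain gave the difference on its own. The congenic arrays alone gave 2.09 to 5.10 with all 9 passing, and the wild type arrays alone 2.69 to 6.02. In wild type alone Fabp3 (6.02, limma, adjusted p = 0.0521) and Hadhb probe 753383 (4.24, limma, adjusted p = 0.165) did not pass, but without wild type hypothalamus array 1 all 9 did, with 2.01 to 5.49. Of all 33012 probes, 5282 passed as higher in congenic alone and 2343 in wild type alone. In wild type without hypothalamus array 1, 7260 did.

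Other genes of the pathway followed the members in muscle only in part. Of 74 measured genes, 38 were higher and 8 lower in muscle by the test (limma, adjusted p under 0.05; background 23.3% of genes higher and 12.6% lower), and the median difference was 1.46. In the list of other mitochondrial oxidation genes 8 of 10 were higher and none lower, with a median of 2.83. Acads, the short-chain dehydrogenase, was higher by 3.87, while Acad9, which serves complex I assembly, gave 0.44 (limma, adjusted p = 0.573). Peroxisomal oxidation genes were higher for 5 of 11 and lower for none, with a median of 1.38. Among regulators 13 of 19 were higher and none lower, with a median of 2.29.

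Regulators with large differences included Pdk4, the kinase that shuts down pyruvate dehydrogenase when fat is burned, at 5.71 (52.3-fold), and Ucp3, the muscle uncoupling protein, at 5.69 (51.6-fold). The nuclear receptors Ppara and Pparg were higher by 2.06 and 2.81. Ppargc1a, the coactivator of mitochondrial genes, gave 0.26, which did not pass (limma, adjusted p = 0.664), as did Ppard, which lies on chromosome 17, with 0.67 (limma, adjusted p = 0.149).

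In the list of activation and carnitine transfer 3 of 13 were higher and 4 lower, with a median of -0.10. Crat, carnitine acetyltransferase, was higher by 4.53, and Slc25a20, the carnitine-acylcarnitine carrier, by 3.88. Lower in muscle were Cpt1c, the brain form of carnitine palmitoyltransferase 1, by -2.63 (limma, adjusted p = 0.00149), the acyl-CoA synthetases Acsl6 by -2.17 and Acsl3 by -1.45, and the thioesterase Acot1 by -2.43. Cpt1a, the liver form, gave -0.10 and did not pass (limma, adjusted p = 0.888). Of the 3 Cpt1 genes, then, the muscle form was higher in muscle, the brain form lower, and no difference was detected for the liver form.

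Cpt1c read 10.99, 10.75 and 9.58 in congenic muscle and 11.48, 11.09 and 10.65 in wild type muscle, against 13.60, 12.99 and 14.11 in congenic hypothalamus and 11.27, 14.33 and 14.05 in wild type hypothalamus. Wild type hypothalamus array 1 was the one hypothalamus array within the muscle range. The tissue difference was -3.12 without it.

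Uptake and binding genes were higher for 8 of 18 and lower for 3, with a median of 1.10. Of 7 other binding protein genes (Fabp), 3 were higher in muscle, 2 lower and 2 did not pass. Fabp4 was higher by 10.62, Fabp1 by 1.36 and Fabp2 by 1.44, while Fabp7, the form of glia and developing brain, was lower by -7.46 and Fabp5, the epidermal form, by -3.13. Fabp6 gave 0.73 (limma, adjusted p = 0.0598) and Fabp9 gave -0.18 (limma, adjusted p = 0.711). Fabp7 read 8.05, 7.92 and 8.34 in congenic muscle and 7.81, 8.11 and 7.82 in wild type muscle, against 15.44, 16.28 and 14.63 in congenic hypothalamus and 15.89, 15.64 and 14.94 in wild type hypothalamus, with no overlap. Whether Fabp7 in muscle, or Fabp4 in hypothalamus at 7.20 to 8.70, exceeded background is unknown, so no fold is given for them. Cav1, the caveolar coat protein, was higher by 4.60 and Slc27a2, an acyl-CoA synthetase of the fatty acid transport family, was lower by -3.47. The 5 measured adipocyte markers averaged 10.89 to 12.09 in muscle and 8.39 to 9.31 in hypothalamus, but they did not act alike. Higher in muscle were 3 of them, Car3 (7.19), Cidec (3.33) and Plin1 (2.33), while Retn (0.09) and Lep (0.59) did not pass (limma, adjusted p under 0.05). The part of these markers in the differences of Fabp4 and Cd36 was not tested. Of 3 measured ketone body genes 1 was higher and 1 lower.

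**Figure D4:**
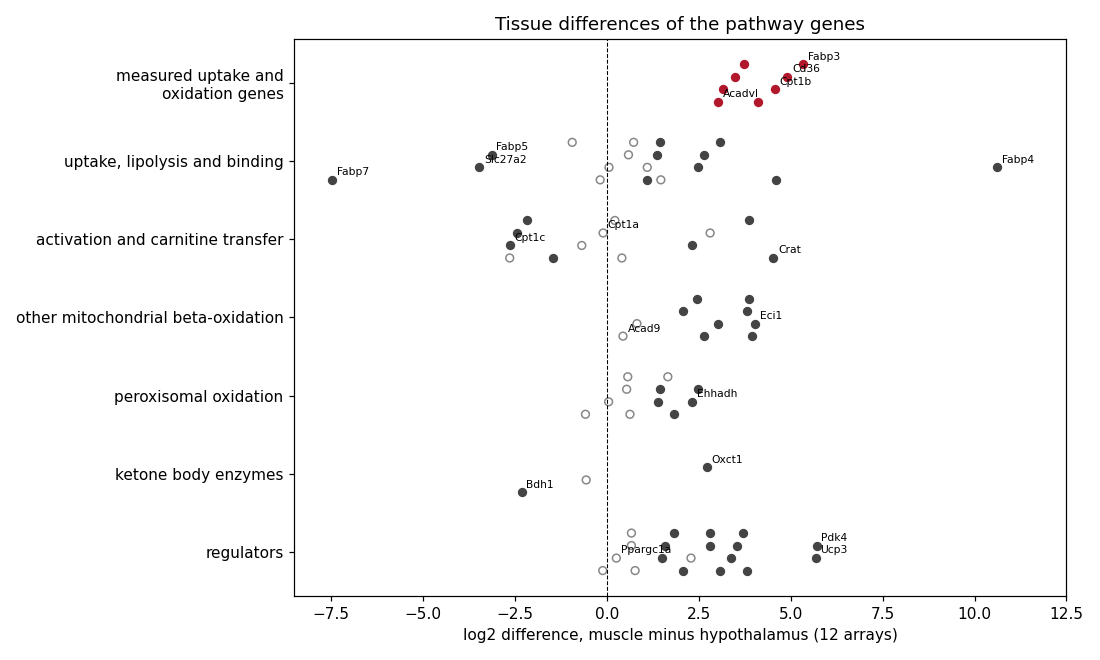
Muscle minus hypothalamus difference on the log2 scale for each measured pathway gene by its brightest probe, with 1 row per list and the 8 measured members in red. Filled points passed an adjusted p of 0.05 in limma over the 12 arrays and open points did not. All 8 members are filled and lie right of 0, while the activation and uptake lists have filled points on both sides.

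Between strains none of these 74 genes passed in muscle or in hypothalamus, with all arrays or without wild type hypothalamus array 1, where 0.0289% of all genes by their brightest probe passed in muscle. In muscle their median difference was 0.02 and 2 had an unadjusted p under 0.05 in limma, as did 698 of all 13840 genes by their brightest probe. Without congenic muscle array 3 the median was -0.08 and 8 did, beside 774 of all genes, with the smallest p for Ppargc1b (-0.57), Lmf1 (-0.83), Bdh1 (-2.26), Ppara (-0.58) and Acsl3 (-0.33), all with an adjusted p of 0.911. With all arrays the smallest p in muscle were those of Abcd2 (-1.27), Acsl3 (-0.61), Oxct1 (-0.45), Acsl4 (-1.72) and Acadsb (-0.85), all with an adjusted p of 0.835. In hypothalamus 0 had an unadjusted p under 0.05 with all arrays, where the smallest p were those of Cav1 (1.20), Oxct1 (2.16), Fabp4 (-0.74), Ucp3 (-1.32) and Acot1 (-1.22). Without wild type array 1, 7 of the 74 did, beside 911 of all 13840 genes, with the smallest p for Pdk2 (-1.41), Decr2 (-2.22), Hsd17b4 (2.61), Slc27a4 (-1.19) and Lmf1 (-1.10), all with an adjusted p of 0.900. Decr2 and Lmf1 lie on chromosome 17, and with all hypothalamus arrays they gave -1.17 and 0.18. The other measured chromosome 17 genes of these lists gave 0.48 (Angptl4), 0.52 (Eci1), -0.16 (Ppard) and 0.55 (Rxrb) with all hypothalamus arrays.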

How the data were processed

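Total RNA was labelled with digoxigenin and hybridised to 1-colour chemiluminescent arrays, per the labels' protocols. The authors deposited 1 processed log2 intensity per probe and array, with no missing value. All arrays of 1 tissue had the same distribution when their sorted values were compared. The software is not given in the sources used here, nor is any background correction. Groups came from the sample titles. The platform annotation gave 1 symbol to 14411 probes, several to 247 and none to 18354.

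Congenic minus wild type was fitted in each tissue alone, and muscle minus hypothalamus and the interaction over all 12 arrays, with limma 3.58.1 in R 4.3.3 (trend, Benjamini-Hochberg over all 33012 probes, threshold 0.05), which was tested on simulated data. Other pathway genes were represented by their brightest probe. All member probes were named. Of the other lists, the called genes with the largest difference (at most 5 a direction) or the 5 smallest p were named, and for the tissues also the relatives of the members. Members and lists were chosen with earlier results of these data known. Alternatives were each array left out, a floor, joint quantile scaling, dim probes left out, no trend, a replicate block, each strain alone and a fit of all arrays. In their deviations from group means, same-numbered arrays of the 2 strains correlated at 0.015 to 0.069 in muscle and at -0.129 to 0.138 in hypothalamus. The main fits have no block, and the block was run as an alternative only. The number of arrays limits the precision. Fits that combine array exclusions or scaling, and wild type alone without hypothalamus array 1, were added after seeing the data.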

Additional observations from a re-analysis of the deposited data

How the results depend on the processing

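Member genes were counted by their brightest probe, which for Hadhb was 753383. The number that passed was 0 in both strain comparisons and in the interaction under every setting run. Between tissues it was 8, except 7 under joint quantile scaling and 6 in wild type arrays alone. Hadhb probe 306111 passed between tissues in both of those settings. A replicate block also gave 0, 0, 0 and 8, and it changed no call. Same-numbered arrays of the strains correlated at 0.069, 0.015 and 0.063 in muscle and at 0.034, -0.129 and 0.138 in hypothalamus, and each congenic muscle array correlated best with its own number. Leaving out 1 array at a time, the muscle strain difference of Cd36 ran from -0.66 to 0.07, of Cpt1b from -0.12 to 0.37, of Cpt2 from -0.11 to 0.30, of Acadl from -0.03 to 0.23 and of Hadhb probe 306111 from -0.06 to 0.11. In hypothalamus the ranges that crossed 0 were -1.09 to 0.16 for Cd36, -0.24 to 3.08 for Fabp3, -0.46 to 1.08 for Hadha, and -0.23 to 3.13 and -0.71 to 0.79 for Hadhb probes 753383 and 306111. For the interaction the ranges were -0.50 to 0.74 for Cd36, -2.60 to 0.71 for Fabp3, -1.24 to 0.31 for Hadha, 0.11 to 1.25 for Cpt2, and -3.29 to 0.08 and -0.77 to 0.73 for the same Hadhb probes. Without wild type hypothalamus array 1 and congenic muscle array 3 together, the interaction was -0.09 for Cd36, 0.49 for Fabp3, -0.10 for Cpt2, -1.42 for Hadha, 0.00 for Hadhb probe 753383 and 0.38 for probe 306111, against 0.15, -1.36, 0.84, -0.34, -2.16 and -0.18 with all arrays. The tissue differences kept their direction in each of the 23 settings. Over all probes, the 6 muscle calls became 2 with a floor, 2 without a trend, 1 in the fit of all arrays and 2 to 8 with 1 array left out. The tissue calls, 9753, became 3718 in wild type alone, and the interaction calls, 0, became 1 without both arrays. The cause was not tested. No detection calls limit what low values show.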

Other observations

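Genes beside the members on the chromosome did not all share their tissue difference. Dlg4, which encodes the postsynaptic scaffold PSD-95 and neighbours Acadvl in the RefSeq gene order, was lower in muscle than in hypothalamus by -1.94 (limma, adjusted p = 0.0349), where Acadvl was higher by 3.03. Without wild type hypothalamus array 1 the difference of Dlg4 was -2.43 (limma, adjusted p = 0.00168), and without congenic muscle array 3 it was -2.00 and did not pass (limma, adjusted p = 0.0585). Chkb, a choline and ethanolamine kinase gene that neighbours Cpt1b, was higher in muscle by 1.25 (limma, adjusted p = 0.0277). Without wild type hypothalamus array 1 the difference of Chkb was 0.88 (limma, adjusted p = 0.0013), and without congenic muscle array 3 it was 1.15 and did not pass (limma, adjusted p = 0.0662). Both neighbours were chosen after their values were seen.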
